A study of Mus musculus with 38 samples.

Results

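The linker histones are the H1 proteins, and 7 of their genes were followed through 4 count tables: H1f0, H1f1, H1f2, H1f3, H1f4, H1f5 and H1f10. They were taken by symbol, out of 57126 genes in the primary tumour table, where identifiers are paired with names, and by the same identifiers in the other tables. H1f0 was chosen on a measured value of these data, its difference between cells given exosomes of insulin resistant (IR) and of insulin sensitive (IS) adipocytes, and that difference is described here without a test. The other members were added as its family.

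The series asked how exosomes, the small vesicles that cells shed, carry an effect of insulin resistance from fat cells to triple-negative breast cancer. It used 4T1, a mouse mammary adenocarcinoma line, and adipocytes formed from the mouse line 3T3-L1. RNA of 38 libraries in 10 groups was sequenced after a stranded messenger RNA kit that selects poly(A) tails. In culture, 3 libraries came from untreated 4T1 cells, 3 from cells kept for 72 h with IS exosomes and 3 with IR exosomes. The brain experiment, named in the labels as a clonogenic assay, held 5 control, 5 IS and 5 IR libraries, and the tumour experiment 4 libraries of control and 5 of IR primary tumours. The miRNA experiment held 2 libraries titled scramble and 3 titled miR-145a-3p. Their library names give the opposite assignment, so these groups are called by their titles and every direction between them depends on which label is right. All samples are labelled as the line 4T1, with no strain or age of a host and no dose given. The labels name biological replicates but no separate culture or animal for each. A p-value therefore speaks only for the spread among these libraries, which may be technical.

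Library totals ran from 8455412 to 12785398 counts in culture, 8790616 to 13272583 in brain, 17392887 to 21909370 in tumours and 24972592 to 32637552 in the miRNA experiment. The biological coefficient of variation was 0.0576, 0.159, 0.326 and 0.0819 in the same order. The brain libraries departed from their cell label. Epcam, an epithelial surface protein, was at 139 to 208 CPM (counts scaled to a common library size) in culture and at 0.279 to 2.91 CPM in brain. The epithelial keratins were lower but present. Krt8 was at 10.9 to 31.4 CPM in brain against 951 to 1220 CPM in culture. Krt18 had a mean of 95.1 CPM in brain controls against 894 CPM in untreated culture. The proliferation marker Mki67 was at 12.5 to 36.8 CPM in brain against 423 to 526 CPM in culture. Markers of leukocytes, endothelium, fibroblasts and astrocytes were present in brain, while Snap25 of neurons was at 0.0 to 0.459 CPM. The brain libraries are therefore called by their label and not as 4T1 cells. In tissue and mixed libraries, fewer cells of a type and less RNA per cell cannot be told apart.

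Linker histones bind the nucleosome where DNA enters and leaves it and help chromatin to fold. The replication-dependent members, H1f1 to H1f5, lie in the histone gene cluster, are made mainly in S phase, and have messengers that end at a stem-loop in place of a poly(A) tail. H1f0 and H1f10 are replacement forms with polyadenylated messengers, and H1f0 is known for rising in cells that leave the cell cycle or differentiate. A poly(A) kit therefore reads the first class through whatever polyadenylated messenger its genes give, and levels here are of that RNA.

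The reference gene models (GENCODE M21, build GRCm38) set these classes apart, and each of the 7 models has 1 exon. H1f1 to H1f5 lie on chromosome 13, H1f0 at chr15:79028450-79030504 on the plus strand and H1f10 at chr6:87980421-87981637 on the minus strand. The histone stem-loop is shown because it marks the messengers that need no poly(A) tail, with the pairing arms in capitals. The models of H1f2 (chr13:23739512-23739527, plus strand), H1f3 (chr13:23555787-23555802, plus strand) and H1f4 (chr13:23621782-23621797, minus strand) hold the same 16 bases:

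stem-loop of H1f2, H1f3 and H1f4: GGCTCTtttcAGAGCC

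The consensus of the histone stem-loop, which leaves 4 positions partly or wholly free, was found in transcripts of 48 of 55450 genes (0.0866%), 44 of them histone genes. It began 25 bases after the stop codon in H1f2, 32 in H1f3 and 41 in H1f4, and the models ran on for 840, 4884 and 1153 bases beyond it. The model of H1f2 also held AATAAA, the signal for polyadenylation, 26 bases before its end. The model of H1f1 ended 15 bases into the stem-loop and that of H1f5 at its stop codon. H1f0 and H1f10 held no match to the consensus after their stop codons, and AATAAA lay 22 and 21 bases before their ends.

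The 150 bases before the RefSeq start were searched on both strands for AAACACA, the H1 box of replication-dependent linker histone genes, for the CCAAT box, and for the TATA-like string TATANA. All 7 members matched the RefSeq promoter table (GRCm38.p6). The windows of H1f2 and H1f4, the members that changed, and of H1f1, which was nearly silent, are shown beside that of H1f0, with matches in capitals (the TATA-like string only on the gene's own strand and in the 60 bases next to the start). Overlapping matches run together.

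H1f2: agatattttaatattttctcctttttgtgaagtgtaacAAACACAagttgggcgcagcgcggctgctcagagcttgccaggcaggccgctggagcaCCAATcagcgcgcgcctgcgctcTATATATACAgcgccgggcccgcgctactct
H1f4: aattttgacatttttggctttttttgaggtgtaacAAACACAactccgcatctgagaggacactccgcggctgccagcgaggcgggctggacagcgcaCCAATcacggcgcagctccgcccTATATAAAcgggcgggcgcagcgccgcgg
H1f1: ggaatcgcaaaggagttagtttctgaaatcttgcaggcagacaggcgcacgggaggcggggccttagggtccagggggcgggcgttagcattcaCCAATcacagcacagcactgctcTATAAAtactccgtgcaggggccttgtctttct
H1f0: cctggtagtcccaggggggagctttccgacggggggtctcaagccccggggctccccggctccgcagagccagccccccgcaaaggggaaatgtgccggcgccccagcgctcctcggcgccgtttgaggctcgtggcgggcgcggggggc

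These windows are chr13:23738657-23738806 on the plus strand, chr13:23622559-23622708 on the minus strand, chr13:23763518-23763667 on the plus strand and chr15:79028062-79028211 on the plus strand. AAACACA was in H1f2, H1f3, H1f4 and H1f5, beginning 112, 122, 115 and 117 bases before the start, and in 3.53% of 32851 windows of this length. CCAAT was in 5 of 5 replication-dependent members, 51 to 56 bases before the start, and in 24.5% of windows. TATANA was in the same 5 members, and in 13.3% of windows. H1f1 had no AAACACA, and H1f0 and H1f10 had none of the 3 strings in these windows. The M21 start of H1f0 lies 238 bases downstream of the RefSeq start, so another window would hold other letters.

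Of the 7 members, 2 passed the filter of 3 CPM in at least 3 libraries in culture, 5 in brain, 3 in tumours and 2 in the miRNA experiment. H1f0 and H1f2 passed in every table, H1f10 in brain and tumours, and H1f3 and H1f4 in brain alone. H1f1 and H1f5 passed in none.

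Per kilobase of transcript, H1f0 had the highest level of the family in culture, tumours and the miRNA experiment, and H1f2 in brain. In untreated culture H1f0 was at 194 ± 9.36 and H1f2 at 2.73 ± 0.192 CPM per kb (SD, n = 3). In brain controls H1f2 was at 169 ± 14.6 and H1f0 at 40.1 ± 2.88 CPM per kb (SD, n = 5). H1f10 followed at 8.82 ± 1.01, H1f4 at 6.82 ± 1.24, H1f5 at 1.91 ± 0.688, H1f3 at 1.61 ± 0.309 and H1f1 at 0.576 ± 0.516 CPM per kb. In that order the libraries of H1f10 and H1f4, of H1f5 and H1f3, and of H1f3 and H1f1 overlapped. The low place of H1f3 rests in part on its model of 7425 bases, against 741 to 2055 for the others.

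**Figure D1:**
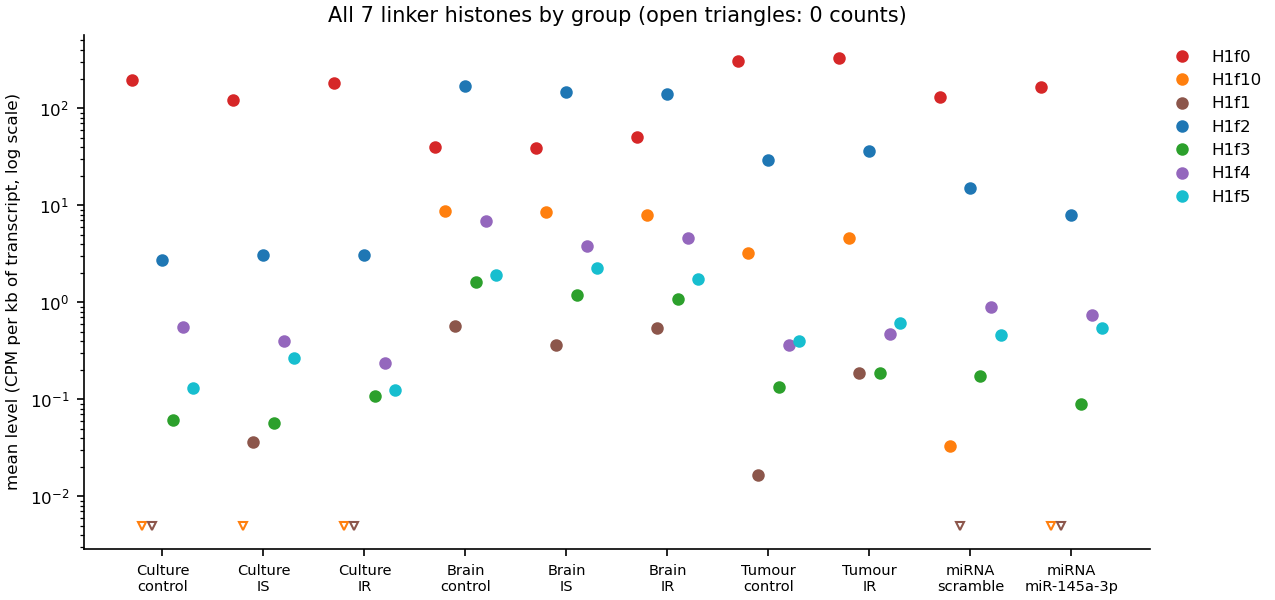
Mean level of each linker histone in each group, in CPM per kb of the M21 transcript on a log axis, with 1 point per gene and open triangles at an arbitrary height for groups with 0 counts. H1f0 is the top point in the culture, tumour and miRNA groups and H1f2 in the 3 brain groups.

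H1f0 ranked by CPM from tumours down to brain. Group means were 676 ± 76.4 in IR and 628 ± 78.5 in control tumours, 398 ± 19.2 in untreated culture, 378 ± 9.37 with IR exosomes, 338 ± 12.3 in libraries titled miR-145a-3p, 267 ± 12.4 in those titled scramble and 250 ± 15.9 with IS exosomes (SD). The brain groups came last, with 104 ± 17.2 in IR, 82.5 ± 5.91 in controls and 80.1 ± 9.07 in IS. Neighbours in this order overlapped in their libraries between the tumour groups, between control and IR culture, between titled scramble and IS culture, and among the brain groups. Tables of different experiments were quantified separately, so this order has no test.

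In culture, H1f0 was lower after IS exosomes. The untreated libraries were at 395, 380 and 418 CPM, and the IS libraries at 232, 260 and 258 CPM. Every IS library lay below every untreated one. The level was 1.59-fold lower (log2 -0.67 ± 0.048, SE, edgeR quasi-likelihood test, adjusted p = 4.71e-08, 95% interval -0.76 to -0.58). Of all genes tested, 19.3% were called at an adjusted p of 0.05 in this comparison, and 9.32% as lower, and 36.8% did not overlap between the groups. The IS libraries also enter the difference for which H1f0 was put forward, so this p is not independent of that choice.

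With IR exosomes, H1f0 was at 389, 375 and 371 CPM, within or just below the untreated range. The difference from untreated cells was log2 -0.07 ± 0.047 (SE, edgeR adjusted p = 0.356), with an interval of -0.17 to 0.02, beside 13.6% of all genes called. The IS and IR comparisons share the untreated libraries. Between IR and IS exosomes, H1f0 was 1.51-fold higher with IR (log2 0.60) and the groups did not overlap, as for 26.6% of genes. That is the contrast that chose it, where 6.27% of genes were called, and nothing is read from it.

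H1f2, the main replication-dependent member in these libraries, stood near the filter in culture. It was at 4.25, 3.96 and 4.56 CPM in untreated cells, 5.12, 4.46 and 4.81 with IS and 5.01, 4.51 and 4.86 with IR exosomes, on 36 to 63 counts a library. All 3 groups overlapped. Its differences from untreated cells were log2 0.17 ± 0.17 with IS (edgeR adjusted p = 0.517) and 0.16 ± 0.17 with IR (edgeR adjusted p = 0.596), with intervals from -0.16 to 0.51 and from -0.17 to 0.50. A fall as large as that of H1f0 with IS lies outside the first interval. The size of that H1f0 fall is not independent of the choice of the gene.

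The other members were below the filter in culture. H1f4 had 2 to 16 counts a library, H1f3 3 to 11 and H1f5 0 to 5. H1f1 had 1 count in 1 IS library and 0 in the other 8 culture libraries. H1f10 had 0 counts in all 9, which over the 3 untreated libraries allows a level of up to 0.0995 CPM by counting error alone. In brain it was at 6.95 to 13.1 CPM.

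The ratio of H1f0 to the summed CPM of H1f1 to H1f5 is used here only to set libraries of 1 experiment side by side. It was 67.8, 70.1 and 65.0 in untreated cells, 32.1, 49.3 and 42.1 with IS and 58.3, 69.5 and 58.3 with IR exosomes. The IS libraries were the lowest 3 of the 9. The ratio holds the H1f0 values that chose the gene, so this order is not separate from that choice. The sum itself was 5.90 ± 0.511, 6.21 ± 0.977 and 6.15 ± 0.669 CPM (SD, n = 3 each), and the 3 sums overlapped.

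**Figure D2:**
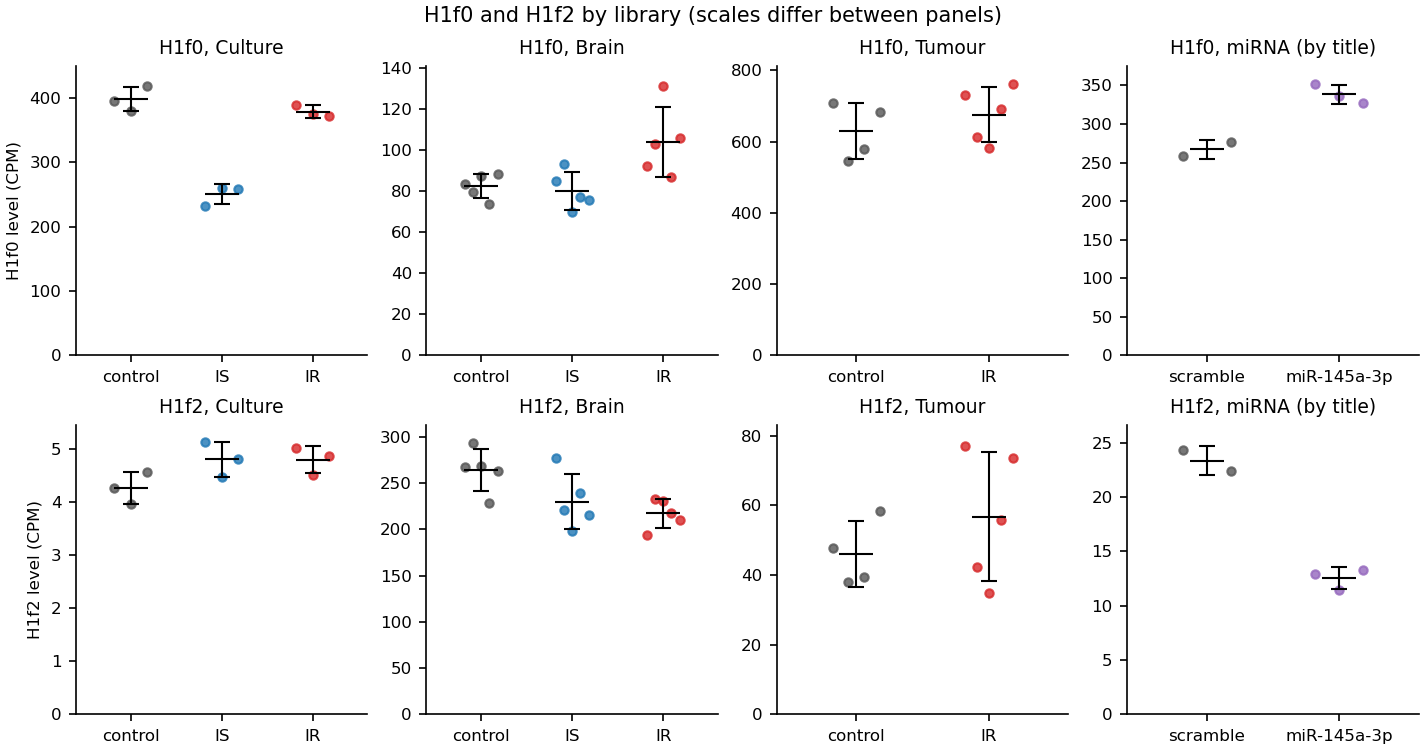
H1f0 (top) and H1f2 (bottom) in CPM on linear axes from 0, with 1 point per library and bars for mean and SD, in the 4 experiments. The 3 IS culture libraries of H1f0 sit at 232 to 260 CPM below all others of that panel, and in the miRNA panels the members move apart.

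Other gene lists give the setting of the fall of H1f0 with IS exosomes. Over all genes, 9.32% were called as lower in this comparison. Of 18 S phase genes tested, 8 were lower and 1 higher (median log2 -0.11 against 0.0 over all genes). Mcm7, a subunit of the replicative helicase, went from 273 ± 5.25 to 224 ± 6.44 CPM (log2 -0.29 ± 0.035, edgeR adjusted p = 2.37e-05), and Ccne1, cyclin E1, rose 1.68-fold (edgeR adjusted p = 0.000156). Of 10 proteins that carry linker histones or compete with them for chromatin, 6 were lower and 0 higher, among them Hmgb2, a DNA-bending protein (log2 -0.29, edgeR adjusted p = 3.05e-05), and Set, a histone chaperone (log2 -0.22, edgeR adjusted p = 8.94e-05). Of 8 replication-independent histone variants tested, 4 were lower and 0 higher, with H3f3b at log2 -0.20 (edgeR adjusted p = 0.00115). These falls were smaller than the 1.59-fold fall of H1f0. H1f0 was chosen on a difference that includes the IS libraries, so nothing is read from that order of sizes. The keratin and adhesion list of the 4T1 cells was lower too, in 4 of 5 members, with a sum of 2220 to 2270 CPM with IS against 2840 to 2880 untreated. Some members were called with IR exosomes too, where H1f0 was at log2 -0.07 and 13.6% of all genes were called. There 2 of 18 S phase genes and 1 of 10 chaperones and competitors were lower, and 0 of either list higher. Of 8 variants 1 was higher and 1 lower. In the keratin and adhesion list 2 of 5 were lower, with Cdh1 at log2 -0.45 (edgeR adjusted p = 1.81e-07) against -0.34 with IS. The part of these shifts in the level of H1f0 was not tested.

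Of 12 cell cycle exit genes tested, 1 was higher and 1 lower with IS exosomes. Over all genes, 19.3% were called with IS and 13.6% with IR. With IR exosomes 3 were higher, led by Txnip (2.72-fold, edgeR adjusted p = 1.38e-05) and Ccng2 (1.81-fold, edgeR adjusted p = 3.34e-05), while H1f0 was at log2 -0.07. Of 15 genes of histone messenger 3′ processing, 1 was lower with IS, and 1 was higher and 1 lower with IR. None of 61 core histone genes passed the filter in culture. Their summed level was 31.4 ± 1.28 CPM untreated, 26.6 ± 3.17 with IS and 27.4 ± 3.58 with IR (SD, n = 3 each).

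In brain, H1f0 was higher and H1f2 lower in IR than in controls, and H1f4 was lower in IS. The other replication-dependent members did not pass the test or the filter. H1f0 stood at 83.5, 79.6, 87.1, 73.9 and 88.4 CPM in controls and at 92.3, 103, 131, 86.7 and 106 CPM in IR. Of the IR libraries, 5 of 5 exceeded the control mean, and only IR 4 lay within the control range. The rise was 1.26-fold (log2 0.33 ± 0.10, edgeR adjusted p = 0.0474, interval 0.13 to 0.53), beside 11.7% of all genes called and 6.45% called as higher. The call was held by a narrow margin: the adjusted p was 0.0614 with no filter on low counts and 0.0651 with the replicate number as a block, and it passed in 2 of the 10 fits that left out a library, without IR 1 (0.047) and without IR 4 (0.0211). In the other 8, which left out any control or IR 2, 3 or 5, it was 0.0634 to 0.137, the last without IR 3 with a log2 of 0.24.

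In the IS brain libraries H1f0 was at 85.1, 93.0, 69.7, 77.2 and 75.5 CPM, around the controls. The difference was log2 -0.04 ± 0.10 (edgeR adjusted p = 0.865, interval -0.25 to 0.16), beside 6.46% of genes called, and it turned to 0.003 without IS 3. Between IR and IS, H1f0 was 1.3-fold higher in IR (log2 0.37 ± 0.10, interval 0.17 to 0.58), with an edgeR adjusted p of 0.0774 where 0.0464% of genes were called. DESeq2 gave 0.0315, and edgeR 0.0186 without IS 2. The brain comparisons with controls share those 5 controls.

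H1f10, the other replacement member, did not pass in brain. Its levels were 8.75 to 12.0 CPM in controls (median 10.9), 7.82 to 12.4 in IS (median 10.6) and 6.95 to 13.1 in IR (median 8.72). The groups overlapped throughout. Its differences from controls were log2 -0.05 ± 0.18 in IS (edgeR adjusted p = 0.921) and -0.15 ± 0.18 in IR (edgeR adjusted p = 0.648). Its model shares 755 bases with Gm5577 on the opposite strand, and no source used here gives the strand setting of the counting.

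H1f2 was the most abundant linker histone of the brain libraries. It stood at 267, 293, 268, 229 and 263 CPM in controls, 277, 221, 198, 239 and 215 in IS and 194, 233, 231, 218 and 210 in IR. All 5 IR libraries lay below the control mean, and 2 of them lay above the lowest control. In IR it was 1.22-fold lower (log2 -0.28 ± 0.089, edgeR adjusted p = 0.0488, interval -0.46 to -0.11), beside 5.27% of genes called as lower. The call was lost with library totals as the only scaling (adjusted p = 0.0756), with no filter (0.0522), with the replicate number as a block (0.0839) and in 9 of 10 fits without 1 library (0.0517 to 0.123). It held in the fit without control 4 (0.039). In IS the difference was log2 -0.20 ± 0.089 (edgeR adjusted p = 0.20).

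H1f4 was the member that fell in the IS brain libraries. Controls were at 13.6, 15.1, 15.7, 10.6 and 10.8 CPM, and IS libraries at 6.85, 10.4, 4.47, 8.24 and 6.52 CPM. Every IS library lay below every control, as did 4.07% of genes tested. The fall was 1.81-fold (log2 -0.85 ± 0.23, edgeR adjusted p = 0.034, interval -1.3 to -0.41), beside 3.1% of genes called as lower. It was lost in 6 of 10 fits without 1 library, namely control 1 (0.0689), 2 (0.0819) or 3 (0.086) and IS 1 (0.0583), 3 (0.0719) or 5 (0.0666).

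In IR, H1f4 was at 5.70, 10.6, 12.6, 7.75 and 7.73 CPM, with 2 libraries in or at the edge of the control range. The difference was log2 -0.57 ± 0.23 (edgeR adjusted p = 0.116), and IR against IS gave 0.29 ± 0.23 (edgeR adjusted p = 0.556), so no difference between IS and IR was shown. The H1f4 model shares 496 bases on its own strand with the core histone gene Hist1h2be and 320 with the pseudogene Gm11398. Its counts were not whole numbers, and how reads were divided between these genes is uncertain.

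H1f3 gave lower values in both brain groups without passing. Controls were at 13.9, 13.6, 13.0, 8.45 and 10.9 CPM, IS at 11.7, 11.7, 6.33, 7.77 and 6.78, and IR at 6.62, 10.7, 10.2, 6.66 and 6.31. All 10 IS and IR libraries were below the control mean of 12.0 CPM, with overlap. Its differences were log2 -0.43 ± 0.22 in IS (edgeR adjusted p = 0.255) and -0.56 ± 0.22 in IR (edgeR adjusted p = 0.109). H1f5, at 0.574 to 2.44 CPM, and H1f1, at 0.0 to 1.02 CPM, were below the filter in brain and their groups overlapped.

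**Figure D3:**
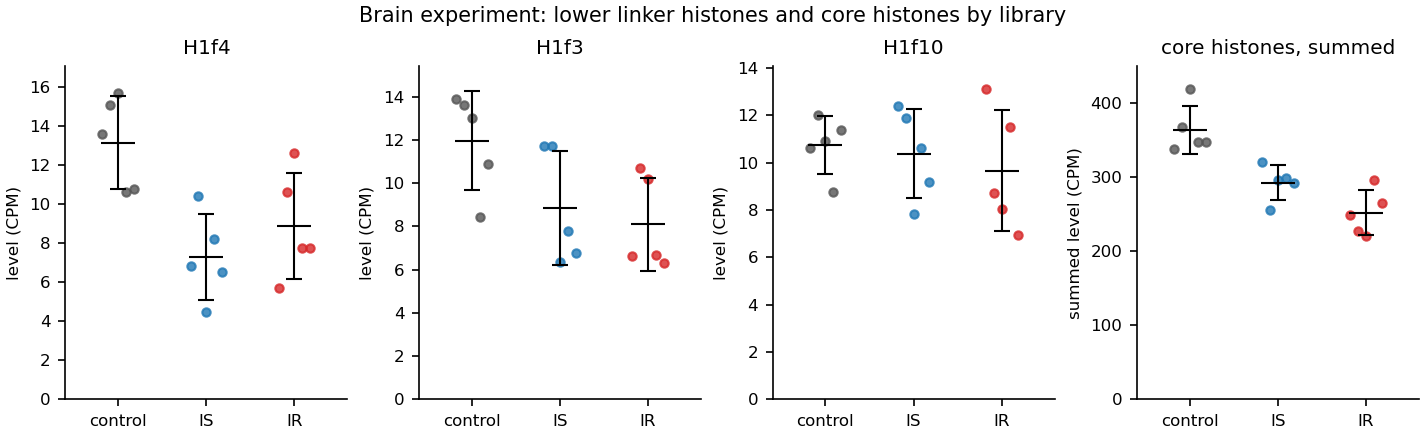
H1f4, H1f3, H1f10 and the summed core histones in the brain experiment, in CPM on linear axes from 0, with 1 point per library and bars for mean and SD. The H1f4 points of IS (4.47 to 10.4 CPM) lie below all controls (10.6 to 15.7 CPM), while H1f10 overlaps in all groups.

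The ratio of H1f0 to the replication-dependent sum in brain was 0.283, 0.246, 0.291, 0.295 and 0.309 in controls, 0.285, 0.381, 0.331, 0.301 and 0.327 in IS, and 0.444, 0.402, 0.513, 0.371 and 0.467 in IR. Every IR library was above every control, and the lowest IR library, at 0.371, was below the highest IS library, at 0.381. The sum was 291 ± 26.5 CPM in controls, 248 ± 32.9 in IS and 236 ± 20.5 in IR (SD, n = 5 each).

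The core histone genes of the same cluster class gave lower values as well. Of 61 genes 14 were tested, and in IR 5 were lower and 0 higher, with a median log2 of -0.51 against 0.0 over all genes, where 5.27% were called as lower. H2bc4 went from 189 ± 15.0 to 127 ± 19.8 CPM (log2 -0.58 ± 0.11, edgeR adjusted p = 0.00292), H2ac18 was 2.33-fold lower (edgeR adjusted p = 0.00352) and H3c4 2.34-fold lower (edgeR adjusted p = 0.00564). In IS 3 were lower and 0 higher, with a median of -0.26, where 3.1% of all genes were called as lower, again with H3c4 (2.26-fold, edgeR adjusted p = 0.0111), and H2ac19 (1.47-fold, edgeR adjusted p = 0.0305). Another scaling moved H1f0 in these comparisons by at most 0.042 in log2, and the shift of the core histone genes was not measured. Core histone genes have near-identical copies, so which copy gave the reads is uncertain.

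Of 18 S phase genes tested in brain, 0 were higher and 1, E2f1, was lower in IR (log2 -0.26, edgeR adjusted p = 0.0456), and none passed in IS. Over all genes, 11.7% were called in IR, 5.27% as lower, and 6.46% in IS, 3.1% as lower. At an unadjusted p under 0.05, 2806 of all genes differed in the IS comparison, of which 835 were called. Among 14 genes of histone messenger 3′ processing, Upf1, a helicase of messenger decay that acts on histone messengers, was higher in IS (1.23-fold, edgeR adjusted p = 0.0112) and in IR (1.17-fold, edgeR adjusted p = 0.027). Of 10 chaperones and competitors, 1 was higher in IR, Hmga1, an architectural protein that competes with H1 (log2 0.55 ± 0.12, edgeR adjusted p = 0.00934). Of 14 cell cycle exit genes, 3 were lower in IR (Ccng1, Txnip and Cdkn1a) and 2 in IS (Cdkn1a and Btg2). Of 9 histone variants none passed in either comparison.

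Cell type markers also differed between the brain groups. The 3 endothelial markers rose in IR, with sums of 70.7 to 104 CPM in controls, 89.6 to 481 in IS and 280 to 607 in IR. Of 5 leukocyte markers tested, 2 were lower in IR, with sums over the list of 6 at 1630 to 3240 CPM in controls, 853 to 3480 in IS and 411 to 1940 in IR. Fibroblast sums were 568 to 710, 422 to 671 and 238 to 567 CPM, astrocyte sums 73.1 to 110, 80.9 to 168 and 48.3 to 113, and sums of the 5 epithelial markers 108 to 140 in controls and 87.4 to 167 over the IS and IR libraries. Neuronal markers were below 1 CPM on average, with sums of at most 1.67 CPM. Their part in the changes of H1f0, H1f2 and H1f4 was not tested.

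**Figure D4:**
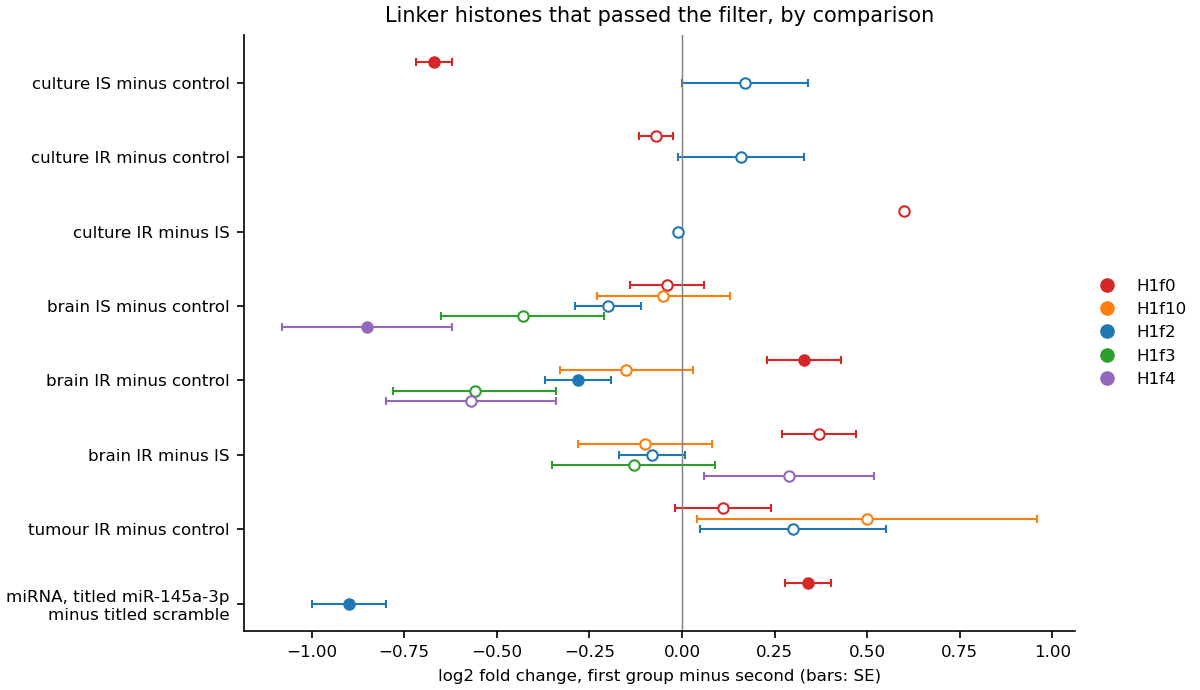
Log2 fold change, first group minus second, of each linker histone that passed the filter, with bars for the SE and filled points where the edgeR adjusted p was 0.05 or less. The culture IR minus IS points carry no bar because that contrast chose H1f0. In brain IR minus control, H1f0 lies at 0.33 and H1f2, H1f3 and H1f4 between -0.57 and -0.28.

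In primary tumours no linker histone passed. H1f0 was at 707, 545, 579 and 683 CPM in controls and 731, 612, 583, 691 and 762 CPM in IR. The groups overlapped, and the difference was log2 0.11 ± 0.13 (edgeR adjusted p = 0.941, interval -0.14 to 0.35). H1f2 was at 47.8, 38.1, 39.4 and 58.5 CPM in controls and 77.0, 42.4, 34.8, 55.8 and 73.6 in IR (log2 0.30 ± 0.25, edgeR adjusted p = 0.888). H1f10 ran from 2.87 to 4.91 CPM in controls and from 1.57 to 9.73 in IR (log2 0.50 ± 0.46, edgeR adjusted p = 0.913). With the replicate number as a block, the log2 differences were 0.06 for H1f0 (edgeR adjusted p = 0.735), 0.15 for H1f2 (edgeR adjusted p = 0.636) and 0.08 for H1f10 (edgeR adjusted p = 0.941). IR 1 and IR 5 were the highest libraries of H1f2, and IR 1 was the lowest and IR 5 the highest of H1f10.

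No gene at all was called in tumours (0%) by edgeR, with 991 of 12962 genes at an unadjusted p under 0.05 and 124 called by DESeq2. In simulated counts of this size, with 200 genes changed, 30% of those changed by 2-fold were recovered. H1f3 was at 0.601 to 2.19, H1f4 at 0.266 to 1.42, H1f5 at 0.0 to 1.03 and H1f1 at 0.0 to 0.649 CPM, below the filter. The ratio of H1f0 to the replication-dependent sum was 13.3 ± 1.42 in controls (n = 4) and 12.0 ± 2.69 in IR (n = 5, SD). Core histones had 5 genes tested and 0 called, with a median of -0.13. Skeletal muscle marker sums ran from 0.099 to 161 CPM in controls and 0.757 to 8980 in IR, and fibroblast sums from 2220 to 4370 and from 4430 to 9190. The part of these cells in the spread was not tested.

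In the miRNA experiment H1f0 and H1f2 moved in opposite directions. The libraries titled miR-145a-3p were at 352, 336 and 327 CPM for H1f0, and those titled scramble at 258 and 276 CPM. All of the first lay above both of the second. H1f0 was 1.27-fold higher in libraries titled miR-145a-3p (log2 0.34 ± 0.062, edgeR adjusted p = 0.00235, interval 0.22 to 0.46). H1f2 was at 12.9, 11.4 and 13.3 against 24.3 and 22.4 CPM, 1.87-fold lower in libraries titled miR-145a-3p (log2 -0.90 ± 0.10, edgeR adjusted p = 0.000326, interval -1.1 to -0.70). Both directions would reverse if the library names and not the titles are right.

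In that comparison 56.7% of all genes were called, 28% as higher and 28.7% as lower, and 73% did not overlap, so 2 called of 2 tested members is not far from the background. With library totals as the only scaling, the log2 was 0.46 for H1f0, a move up by 0.12, and -0.78 for H1f2. H1f3 was at 0.355 to 0.929 CPM in libraries titled miR-145a-3p and 1.19 to 1.42 in those titled scramble, without overlap but below the filter. H1f4, at 0.922 to 2.46 against 1.69 to 1.79 CPM, and H1f5, at 0.155 to 0.615 against 0.290 to 0.398, overlapped. H1f10 had 1 count in each library titled scramble and 0 in each titled miR-145a-3p, and H1f1 had 0 in all 5. The ratio of H1f0 to the replication-dependent sum was 9.34 and 10.7 in libraries titled scramble and 23.5, 25.6 and 19.2 in those titled miR-145a-3p.

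The 2 core histone genes tested there, H4c9 (2.21-fold, edgeR adjusted p = 0.000826) and H2ac25 (1.90-fold, edgeR adjusted p = 0.0013), were lower in libraries titled miR-145a-3p, as H1f2 was. Of 18 S phase genes 10 were higher there and 2 were lower (median 0.28 in log2 against -0.01 over all genes), and Cdc6, which loads the replicative helicase, was 1.62-fold higher (edgeR adjusted p = 0.000181). Of 3 RNAs tested that carry no poly(A) tail, 1 was called, Rn7s1, which was 2.38-fold higher (edgeR adjusted p = 0.00169). Sums over that list were 21.7 and 32.3 CPM in libraries titled scramble and 52.4, 33.1 and 59.1 in those titled miR-145a-3p. Rn7sk, in the same list, was at log2 -0.73 ± 0.41 (edgeR adjusted p = 0.164). In culture the sums were 0.0 to 0.352 CPM, over 10 genes of the list against 15 in the miRNA experiment. The 2 sets of sums are therefore not over the same genes. What such RNA adds to the linker histone counts was not tested.

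**Figure D5:**
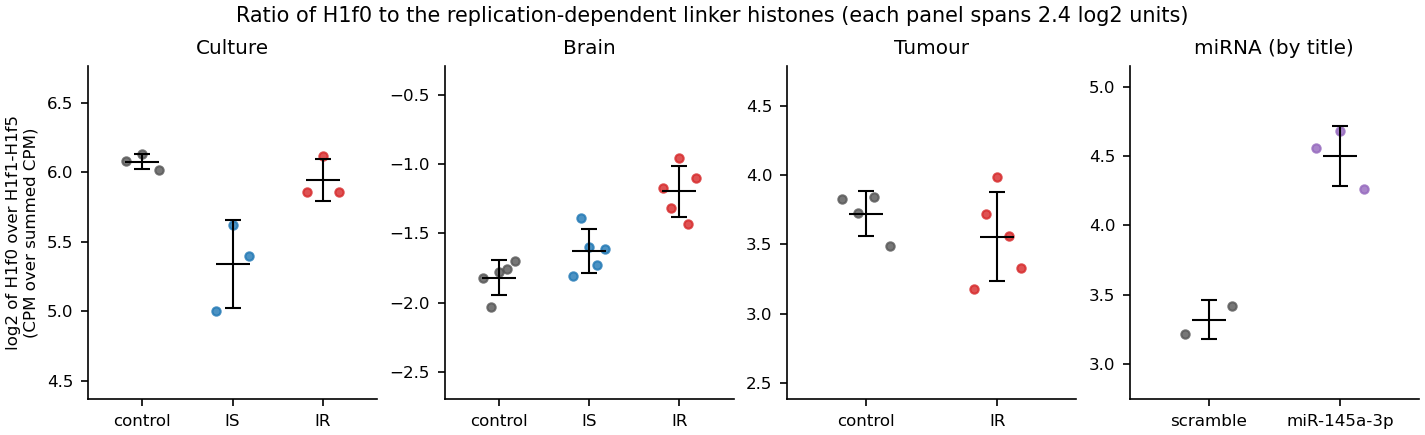
Log2 ratio of H1f0 CPM to the summed CPM of H1f1 to H1f5 in each library, with mean and SD, in panels of equal height and different position. IR brain libraries (-1.43 to -0.96) lie above all controls (-2.03 to -1.70), IS culture libraries (5.00 to 5.62) below the other culture libraries, and libraries titled miR-145a-3p (4.26 to 4.68) above those titled scramble (3.22 and 3.42). The order in culture is not separate from the choice of H1f0 on its IS and IR culture values.

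Likeness was measured as the Pearson r of log2(CPM + 1), centred within each experiment, over the 38 libraries and the 9883 genes that passed in all 4 tables. Libraries of a group share their treatment, so r is a description. The culture libraries hold the H1f0 values that chose the gene. The genes named are those of highest r among all compared, so a high r came with that choice. The genes most like H1f0 were G3bp1, a stress granule protein (r = 0.714), Phc2, a Polycomb subunit (0.712), and Hmga1b (0.67), whose reads may be shared with its close copy Hmga1. Those most like H1f2 were Creb3, a transcription factor of the endoplasmic reticulum (0.806), Wdr45, an autophagy protein (0.777), and Sqstm1, an autophagy receptor (0.749). Within the experiments the r of G3bp1 with H1f0 was 0.93 in culture, 0.89 in brain and 0.52 in tumours but -0.64 in the miRNA experiment, while those of Phc2 and Hmga1b were above 0 in each. H1f0 and H1f2 had a pooled r of 0.004 with each other, made of -0.41 in culture, -0.07 in brain, 0.91 in tumours and -0.96 in the miRNA experiment, the last over 5 libraries of which the 2 titled scramble differ from the rest.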

How the data were processed

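RNA of 38 libraries in 4 experiments was analysed within each experiment's own table. The authors deposited expected counts from RSEM for culture and brain and estimated counts from salmon for tumours and the miRNA experiment, per the file headers and titles. The submitters' processing notes name DESeq2, featureCounts, STAR and Trimmomatic, with no versions. They list GRCm38 (mm10) and GRCm39 (mm39), with no source saying which table rests on which build, so coordinates and sequences describe the reference and not the counts. The culture table held 3 further columns that fit no sample, left out here.

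Counts were rounded to integers. Genes with 3 CPM or more in at least 3 libraries were kept (10888, 12924, 12962 and 10751 genes), scaled with TMM factors and tested in edgeR 4.0.16 (quasi-likelihood, R 4.3.3), fitted to every group of an experiment at once without covariates. Benjamini-Hochberg adjustment covered all genes tested, with calls made at 0.05. The SE is the log2 fold change divided by the square root of F. The 95% intervals were made from this SE with the normal distribution, so they are narrower than the F test would give. CPM values are relative to the tested genes' counts times the scaling factor. Floors of 3 counts cover counting error only. Python 3.11.15, pandas 2.3.3 and matplotlib 3.10.9 made summaries and figures. No 2 libraries agreed within sampling noise.

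The members and gene lists were chosen with earlier results of these data known. Named genes were the 7 members, the 3 genes most like H1f0 and most like H1f2, and up to 3 genes of each list with the smallest adjusted p. Alternatives were RLE scaling, library totals, no filter, DESeq2 1.42.0, a replicate block, each library left out, and only the compared groups. Deviations of same-numbered tumour libraries had correlations of 0.136, 0.759, 0.23 and 0.117. Only the second exceeded the values seen in brain, which reached 0.237. Libraries of different numbers were not compared, so pairing by number was not shown, and the labels do not state it. The fourth pair follows the titles, and its control carries a library name numbered 5. In simulated counts with 200 genes changed, the test recovered 82.8% of those changed by 1.5-fold in the IS culture comparison and 47.9% in the IR brain comparison. The data had more genes called, 2101 and 1514, so these shares need not hold for the data.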

Additional observations from a re-analysis of the deposited data

Results flagged for a closer look

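H1f0 after IR treatment pointed in opposite directions in culture and brain. The 3 culture libraries lay below the untreated mean (log2 -0.07) and the 5 brain libraries above the control mean (log2 0.33). H1f2 did the reverse, above the untreated mean in culture (log2 0.16) and below the control mean in brain (log2 -0.28). The difference between the experiments was not tested, since they come from separate tables, and the culture values of both genes did not pass their own test.

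No library stood apart from its group in any of 21 groups of 4 or 5 libraries of a member that passed the filter, where chance alone gives about 1 in 20.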

How the results depend on the processing

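Member values under an alternative numbered 374, over the 8 comparisons, 7 of them with tests, and all members that passed. Of these, 342 kept their direction and side of the threshold (or, in IR against IS culture, moved by less than the replicate SD). A further 28 lost a call, 2 gained one and 2 changed sign. Many of the 374 belong to members that were not called, or to the untested contrast that chose H1f0. The share kept therefore does not measure how firm the calls were. All 28 lost calls fell on H1f0 and H1f2 in IR brain and H1f4 in IS brain. Without 1 library these calls stayed in 2, 1 and 4 of 10 fits, and under the other alternatives in 4, 3 and 6 of 6. H1f0 in IS culture, whose libraries also enter the difference that chose it, had a log2 of -0.70 to -0.62 without 1 library, given as a description. For H1f0 and H1f2 in the miRNA experiment, calls stayed in all alternatives that left at least 2 libraries in each group. A fit without 1 of the 2 libraries titled scramble measures no spread in that group, so only its log2 is used. Without 1 library the log2 was 0.29 to 0.38 for H1f0 and -0.97 to -0.83 for H1f2. With library totals, and also with no filter, it was 0.46 for H1f0 and -0.78 for H1f2. H1f0 in IR brain was not called with no filter (log2 0.32, adjusted p = 0.0614) or with a replicate block (0.32, adjusted p = 0.0651), and gave 0.24 to 0.39 without 1 library. H1f2 in IR brain lost its call under the block too (adjusted p = 0.0839). H1f0 between IR and IS brain passed with DESeq2 (0.37) and ranged from 0.27 to 0.43 without 1 library. In IS brain, leaving out IS 3 turned H1f0 to 0.003, in a range from -0.09, and H1f10 to 0.04, in a range from -0.11. The cause was not tested. Pairing by replicate number was not shown in any experiment. The block changed no other member's call, the tumours included (H1f0 log2 0.06, H1f2 0.15, H1f10 0.08).

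Genes called between IR and IS brain were 6, against 3 with library totals, 334 with no filter, 604 with DESeq2, 0 with the block and 0 with only the compared groups, and 0 to 1139 without 1 library. In tumours they were 0, against 124 with DESeq2, 1 with the block and 0 to 1 without 1 library, and in the miRNA experiment 6093, against 3990 with the block. Without 1 library they ranged from 295 to 871 between IR and IS culture (683), from 465 to 872 in IS brain (835) and from 836 to 1803 in IR brain (1514). Members with few counts, H1f1 and H1f5 above all, are limited by depth.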
